A study of Mus musculus with 16 samples.

Results

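Matrix metalloproteinases, ADAMTS proteases and tissue inhibitors of metalloproteinases (TIMPs) are described here in MEC1 cells, an established line of mouse epicardial cells. Genes were taken by symbol from the deposited gene table: every Mmp gene with a number and an optional a or b, every numbered Adamts gene, and Timp1 to Timp4. This gave 46 of 46348 genes in the table: 23 Mmp, 19 Adamts and 4 Timp genes. The rule used symbols and no measured value, but earlier results of these data were known when it was set.

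The epicardium is the mesothelial sheet around the heart, and TGF-beta turns cultured epicardial cells from an epithelial to a mesenchymal state in which they can invade matrix. The study's title names a route from PRMT1, an arginine methyltransferase, through Mdm4, an inhibitor of p53, to p53 itself, in invasion by epicardial cells. All groups were MEC1 cells. They received a control siRNA, a PRMT1 siRNA, a p53 siRNA, or the PRMT1 and p53 siRNAs together, and each of these 4 treatments was given without and with TGF-beta, which makes 8 groups of 2 libraries. The labels give no dose or time for TGF-beta or the siRNAs, and MEC1 is a single line, so its libraries hold no variation between animals. The series calls the 2 libraries of a group biological replicates but does not say that they came from separate cultures, so the p-values measure only the spread between these libraries, which may be technical.

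MMPs are zinc proteases that are made as inactive precursors and cut collagens, other matrix proteins and growth factor precursors. Some are secreted and others are held on the cell surface, where Mmp14 activates the precursor of Mmp2 with the help of Timp2. ADAMTS proteases are secreted zinc proteases with thrombospondin repeats that cut proteoglycans such as versican and aggrecan, process procollagens or act on fibrillin microfibrils. TIMPs bind the active site of these enzymes and block it. In the heart these enzymes and inhibitors act on the matrix that epicardial cells must cross, and versican cleavage by ADAMTS proteases is part of valve and wall development.

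The Mmp genes include 10 that lie close together on chromosome 9, called the cluster here, between 7272514 and 7699585 (mm10): Mmp13, Mmp12, Mmp1b, Mmp3, Mmp1a, Mmp10, Mmp8, Mmp27, Mmp20 and Mmp7. Promoter windows from RefSeq on GRCm38.p6, which is the mm10 assembly, were available for 32 of the 46 genes and run from 250 bases before to 50 bases after a gene's RefSeq start. The last 100 bases before the start are printed for the 5 cluster genes that could be tested, because 4 of these fell with TGF-beta in all 4 siRNA treatments and the neighbours can be compared by eye. All are on the plus strand, 5′ to 3′, and capitals mark the AP-1 motif TGANTCA, which is the same on both strands.
Mmp13, chr9:7272414-7272513: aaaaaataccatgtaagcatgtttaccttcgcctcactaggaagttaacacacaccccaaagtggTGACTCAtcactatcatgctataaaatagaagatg
Mmp3, chr9:7445722-7445821: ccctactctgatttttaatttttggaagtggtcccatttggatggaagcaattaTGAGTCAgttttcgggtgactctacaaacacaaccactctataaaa
Mmp10, chr9:7502242-7502341: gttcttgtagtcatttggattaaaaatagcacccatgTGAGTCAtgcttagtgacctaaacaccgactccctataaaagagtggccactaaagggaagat
Mmp8, chr9:7558329-7558428: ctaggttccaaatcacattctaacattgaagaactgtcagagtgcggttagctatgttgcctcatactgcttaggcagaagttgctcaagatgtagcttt
Mmp27, chr9:7571296-7571395: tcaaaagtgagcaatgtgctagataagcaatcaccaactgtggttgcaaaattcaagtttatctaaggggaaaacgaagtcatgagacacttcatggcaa

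With positions counted back from the RefSeq start, the motif began at -35 in Mmp13, -46 in Mmp3 and -63 in Mmp10. It was found in 8 of the 10 cluster genes, all but Mmp8 and Mmp27, and in 0 of the 22 other genes of the 3 families that had a window. The open base N was A in Mmp20 and G or C in the other matches. Some genes had more than 1 window. Counted by window, 8 of the 35 windows of these 32 genes held the motif, against 7.81% of all 32851 windows. The Mmp12 match, at 7347330 to 7347336, was in a window that lies inside the gene (7344381 to 7369499). The Smad-binding letters CAGACA, read on both strands, were in 7 of the 35 windows and in 21.0% of all windows. The 7 genes were Mmp1a, Mmp7, Mmp8, Mmp10, Mmp12, Mmp20 and Timp4. These letters do not overlap the AP-1 letters. A match of letters is a description and not a bound site, and genes that fell were found both with the AP-1 letters (Mmp3, Mmp13) and without them (Mmp8, Mmp27).

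Library totals ran from 19617874 to 30759317 counts, and 15494 genes passed the filter on low counts and were tested. The siRNA targets were reduced in part and not lost: Prmt1 was at 37.5% to 48.1% of the matching control in the 4 groups given PRMT1 siRNA, and Trp53, the gene of p53, was at 40.2% and 44.9% with p53 siRNA alone but at 65.5% and 60.8% with both siRNAs. Of 9 epicardial markers, all passed the filter, and their summed level was 1153 to 1566 CPM (counts scaled to a common library size) in the 8 untreated libraries and 235 to 311 CPM in the 8 libraries with TGF-beta. Of 9 blood and macrophage markers 6 were at the floor (3 counts or fewer in each library), with a sum of 1.79 to 4.16 CPM, and 7 endothelial markers summed to 4.25 to 9.57 CPM. Among 7 cardiomyocyte markers, Myh6, Myh7, Actn2, Nppa and Ryr2 were at the floor, and the sum was 2.14 to 23.9 CPM without and 51.1 to 140.0 CPM with TGF-beta. Only 1 of the 7 passed the filter, so this sum does not stand for the set. The part of the epicardial and cardiomyocyte shifts in the results below was not tested. Replicate 2 of p53 siRNA with TGF-beta stood apart from its partner: the root mean square log2 difference between them was 0.805, against 0.341 to 0.426 in the other 7 groups. It was low in long transcripts, with a slope of log2 level on log2 transcript length of -0.247, against -0.0710 to 0.0708 in the other 15 libraries. The comparisons that use it are given from all 16 libraries and then from a fit of the other 15.

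Of the 46 genes, 32 were tested, 3 were too low to test, and 11 were at the floor. Those at the floor were Mmp1a, Mmp1b, Mmp7, Mmp20, Mmp21, Timp4, Adamts8, Adamts13, Adamts15, Adamts17 and Adamts19. They include matrilysin (Mmp7), the tooth enamel protease enamelysin (Mmp20), and Adamts13, which cuts von Willebrand factor. Mmp1a, Mmp20 and Adamts19 had 0 counts in all 16 libraries. Mmp1b had 1 count over the 16 libraries. Mmp1a and Mmp1b are near copies of each other, and how reads that match both were counted was not examined, so their place at the floor is uncertain. The 3 genes with more counts that failed the filter were Mmp12, the macrophage elastase, which had at most 16 counts in a library, and the membrane-anchored Mmp24 and Mmp25. Mmp12 overlaps Mmp1b on the opposite strand, and whether the counting used strand is not given in the sources used here. With the floor set at 10 counts, 13 genes were at it, Mmp24 and Mmp25 being added.

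Of the 32 tested genes, 5 had a group with both libraries above the filter's cutoff (0.428 CPM) in 1 arm alone. They were Adamts18 with TGF-beta, and Mmp3, Mmp8, Mmp10 and Mmp27 without. All but Mmp10 passed the filter through that arm alone, so that a difference between the arms was built into their passing. For Mmp10 this is not shown, as the filter does not ask that libraries share a group and a treated library had 0.671 CPM. Numbers of genes called below include all 5. CPM are scaled between libraries by TMM. Changes are on the log2 scale with the standard error from edgeR's quasi-likelihood test, and a gene was called at an adjusted p (Benjamini-Hochberg over all genes tested) under 0.05. RNA was taken from whole cultures, so fewer cells of a kind and less RNA per cell cannot be told apart.

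**Figure D1:**
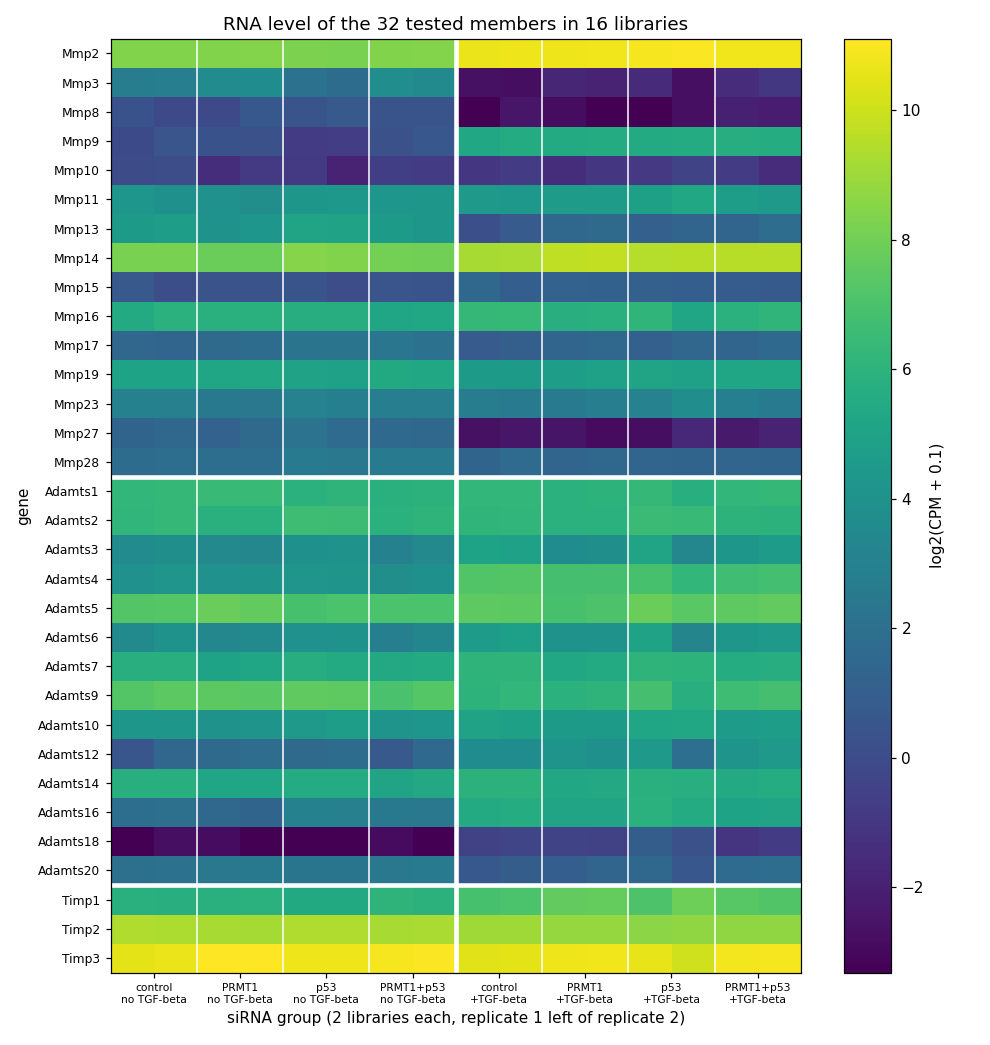
Heat map of log2(CPM + 0.1) for the 32 tested Mmp, Adamts and Timp genes (vertical axis) in the 16 libraries (horizontal axis, replicate 1 left of replicate 2). The 8 untreated libraries are on the left and the 8 with TGF-beta on the right; Mmp9, Adamts4 and Adamts16 are brighter on the right, and Mmp3, Mmp8, Mmp13 and Mmp27 are darker there.

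TGF-beta changed most of the tested genes in each siRNA treatment, in both directions. With control siRNA, 21 of 32 were called, 13 up and 8 down, where 38.4% of all tested genes were called (17.8% up and 20.6% down). With PRMT1 siRNA 12 rose and 11 fell (background 32.5%, 16.3% up and 16.2% down), with p53 siRNA 14 rose and 10 fell (background 45.3%, 23.3% up and 22% down), and with both siRNAs 14 rose and 8 fell (background 31.3%, 15% up and 16.3% down). The median log2 change over the 32 genes was 0.21, 0.11, 0.40 and 0.30 in these 4 responses, against -0.01, -0.01, 0.02 and -0.02 over all tested genes. DESeq2 called 21, 23, 24 and 23 of them (background 37.9%, 32.5%, 44.9% and 31.4%). In the fit of 15 libraries 33 of the genes could be tested, and 26, 26, 27 and 27 were called (background 52.2%, 50.6%, 46.1% and 47.4%). By family, 7 of 14 Adamts genes rose and 2 fell with control siRNA, while the 15 tested Mmp genes split into 5 up and 5 down. The 4 responses share no library, and 9 genes were called up in all of them (Mmp2, Mmp9, Mmp14, Adamts4, Adamts10, Adamts12, Adamts16, Adamts18 and Timp1), while 6 were called down in all (Mmp3, Mmp8, Mmp13, Mmp27, Adamts20 and Timp2). The share of all tested genes called alike in all 4 responses was not computed, so these counts have no background beside them. Adamts18 passed the filter through the treated arm alone, and Mmp3, Mmp8 and Mmp27 through the untreated arm alone. A difference between the arms was thus built into their passing. The counts set against the background include these genes, so that comparison is partly fixed by the filter. Whichever single library of a response was left out, 15 of the 21 calls with control siRNA, 17 of 23 with PRMT1 siRNA, 20 of 24 with p53 siRNA and 16 of 22 with both stood. Those lost in some case were Adamts3, Adamts7, Adamts12, Mmp15, Mmp16 and Timp2 with control siRNA, and Adamts1, Adamts7, Adamts12, Mmp11, Mmp15 and Mmp28 with PRMT1 siRNA. With p53 siRNA they were Adamts12, Adamts14, Mmp15 and Timp3, and with both siRNAs Adamts3, Adamts6, Adamts14, Adamts20, Mmp16 and Mmp17.

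**Figure D2:**
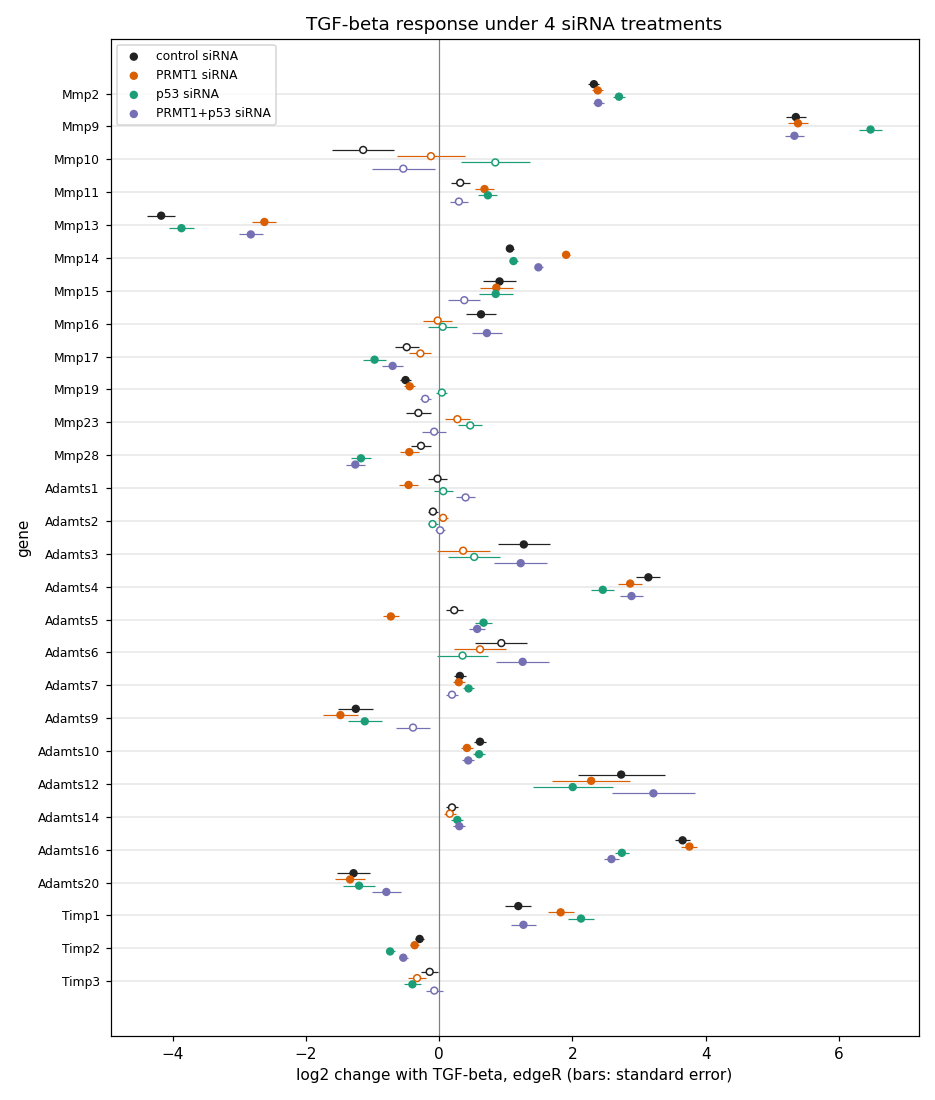
Log2 change with TGF-beta (horizontal axis) for 28 tested genes (vertical axis) under control, PRMT1, p53 and PRMT1 plus p53 siRNA; points are edgeR estimates, bars are standard errors, filled points passed an adjusted p of 0.05 and open points did not. The 4 genes with a group of 3 counts or fewer (Mmp3, Mmp8, Mmp27 and Adamts18) are left out. Mmp9 lies farthest right at 5.33 to 6.47 and Mmp13 farthest left at -4.17 to -2.62.

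The gelatinases, which cut denatured collagen and basement membrane collagen, both rose. Mmp2, gelatinase A (chromosome 8, 92827328 to 92853417), was the more abundant of the pair. Without TGF-beta its level was 331 and 336 CPM with control siRNA, 332 and 337 with PRMT1 siRNA, 311 and 298 with p53 siRNA, and 326 and 347 with both. The treated libraries, in the same order of siRNAs, held 1611 and 1725, 1675 and 1808, 1889 and 2062, and 1766 and 1754 CPM. All 8 treated libraries lay above all 8 untreated ones, and the siRNA treatments overlapped within the untreated arm apart from p53 siRNA, which was lowest. The log2 change was 2.32 ± 0.08 with control siRNA (5.0-fold, adjusted p = 2.1e-09), 2.38 ± 0.08 with PRMT1 siRNA, 2.70 ± 0.08 under p53 siRNA and 2.39 ± 0.08 with both.

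Mmp9, gelatinase B, went from near 1 CPM to over 40 CPM in every siRNA treatment. Untreated libraries held 0.841 and 1.31 CPM with control siRNA, 1.13 and 1.07 with PRMT1 siRNA, 0.499 and 0.520 with p53 siRNA, and 1.09 and 1.41 with both. Those with TGF-beta held 40.6 and 46.8, 45.6 and 46.9, 44.7 and 47.0, and 50.0 and 49.5 CPM. The arms did not overlap, the treated levels were alike, and the p53 siRNA libraries were the lowest untreated ones. The change was 5.35 ± 0.15 with control siRNA (40.9-fold, adjusted p = 3.75e-10), 5.38 ± 0.15 with PRMT1 siRNA, 6.47 ± 0.17 under p53 siRNA and 5.33 ± 0.15 with both. Its p53 siRNA by TGF-beta interaction, 1.12 ± 0.28, missed the threshold (adjusted p = 0.0916), as it did with 15 libraries (1.09, adjusted p = 0.123).

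Among the membrane-anchored MMPs, Mmp14 (chromosome 14, 54431612 to 54441265), the main activator of Mmp2 at the cell surface, was the most abundant. It read 290 and 297 CPM with control siRNA, 232 and 231 with PRMT1 siRNA, 351 and 336 with p53 siRNA, and 268 and 264 with both, all without TGF-beta. In the treated arm it read 602 and 623, 857 and 878, 733 and 755, and 745 and 747 CPM. PRMT1 siRNA thus gave the lowest untreated and the highest treated libraries of the 4 treatments. Its rise was 1.06 ± 0.06 with control siRNA (adjusted p = 1.22e-07), 1.91 ± 0.07 with PRMT1 siRNA, 1.12 ± 0.06 under p53 siRNA and 1.49 ± 0.06 with both.

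The other membrane-anchored members were far lower or changed less. Mmp15 lay at 0.960 to 1.5 CPM without and 1.60 to 2.89 CPM with TGF-beta; it rose with control siRNA (0.91 ± 0.25), PRMT1 siRNA (0.86 ± 0.24) and p53 siRNA (0.85 ± 0.26), and its 0.38 ± 0.24 with both was not called. Mmp16 rose with control siRNA (0.63 ± 0.22) and with both (0.72 ± 0.22) and was not called with PRMT1 siRNA (-0.02) or p53 siRNA (0.05, with 69.4 and 36.9 CPM in the treated libraries); in the 15 libraries the p53 siRNA value was 0.43 and called. Mmp17, which is held by a lipid anchor, fell with p53 siRNA (-0.97 ± 0.17) and with both (-0.70 ± 0.16). The Mmp15 rise with control siRNA was 0.59, and not called, without replicate 1 of the treated group, and 0.64 without replicate 2 of the untreated group.

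Of the 5 tested cluster genes, 4 fell with TGF-beta in all 4 siRNA treatments. The share of all tested genes that did so was not computed. Mmp13, the main interstitial collagenase of the mouse (chromosome 9, 7272514 to 7283333), had the highest level of the tested cluster genes. Its untreated libraries held 23.6 and 26.1 CPM with control siRNA, 16.9 and 19.3 with PRMT1 siRNA, 34.7 and 31.6 with p53 siRNA, and 23.0 and 19.5 with both. With TGF-beta these became 1.04 and 1.65, 2.84 and 3.03, 2.06 and 2.48, and 2.47 and 3.49 CPM. Every treated library was far below every untreated one, and control siRNA gave the lowest treated values. The log2 change of Mmp13 was -4.17 ± 0.21 with control siRNA (adjusted p = 2.45e-08), -2.62 ± 0.18 with PRMT1 siRNA, -3.87 ± 0.19 under p53 siRNA and -2.83 ± 0.18 with both.

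Mmp3, stromelysin-1, which cuts many matrix proteins and activates other MMP precursors, came close to 0 under TGF-beta. Without TGF-beta it was at 6.72 and 6.97 CPM with control siRNA, 12.5 and 12.9 with PRMT1 siRNA, 4.18 and 3.28 with p53 siRNA, and 13.4 and 11.4 with both. With TGF-beta it was at 0.0545 and 0.0424, 0.197 and 0.174, 0.235 and 0.0516, and 0.250 and 0.408 CPM. Both treatments that held PRMT1 siRNA were the highest in the untreated arm, and all treated libraries were near the floor. The ratio of untreated to treated counts was 144 with control siRNA (95% interval 39.4 to 1190, counting error only), 68.8 with PRMT1 siRNA (37.2 to 144), 25.1 with p53 siRNA (11.3 to 69.3) and 37.6 with both (24.2 to 62.0).

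Mmp8, the neutrophil collagenase, and Mmp27 behaved alike at lower levels. Mmp8 had 0.819 to 1.52 CPM untreated and 0 to 0.143 CPM with TGF-beta, and 43, 57, 65 and 66 counts per untreated group became 2, 1, 1 and 8. Mmp27 had 2.26 to 4.36 CPM untreated and 0.0348 to 0.206 CPM treated, with ratios of 35.9 (12 to 177), 47.3 (15.8 to 232), 30.5 (12.8 to 95) and 21.8 (10.8 to 51.3) in the 4 treatments. Mmp10, stromelysin-2, was the tested cluster gene that was not called in any response; it lay under 1 CPM in all libraries, with changes of -1.14 ± 0.46, -0.12 ± 0.51, 0.84 ± 0.52 and -0.54 ± 0.47. Of the 10 tested Mmp genes outside the cluster, 5, 5, 5 and 4 rose and 1, 2, 2 and 2 fell in the 4 responses. Because all 4 cluster genes that fell except Mmp13 had passed the filter through the untreated arm alone, the count of falls in the cluster was partly fixed by the filter.

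Among the remaining Mmp genes, Mmp28, epilysin, was low in all groups. Its 8 untreated values were 3.27 and 3.58 CPM with control siRNA, 3.63 and 3.63 with PRMT1 siRNA, 5.85 and 5.36 with p53 siRNA, and 5.74 and 5.98 with both. Treated cells had 2.45 and 3.18, 2.49 and 2.82, 2.53 and 2.42, and 2.47 and 2.42 CPM. The treated libraries were alike and lay below all untreated ones, and the untreated ones were higher wherever p53 siRNA was given. Mmp28 fell with p53 siRNA (-1.17 ± 0.15, adjusted p = 5.11e-05), with both (-1.26 ± 0.14) and with PRMT1 siRNA (-0.45 ± 0.15, adjusted p = 0.0351, not called by DESeq2), while -0.27 with control siRNA was not called. Mmp19 fell with control siRNA (-0.50 ± 0.08) and PRMT1 siRNA (-0.44 ± 0.08). Mmp11, stromelysin-3, rose with PRMT1 siRNA (0.68 ± 0.14) and p53 siRNA (0.73 ± 0.14). Mmp23 was not called in any of the 4 responses with 16 libraries.

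Adamts16, Adamts4 and Adamts12 had the largest rises among the ADAMTS genes with at least 5 CPM in a group. Adamts16 (chromosome 13, 70727802 to 70841811), a protease best known from kidney and blood pressure studies, had 3.54 and 3.92 CPM with control siRNA, 2.69 and 2.43 with PRMT1 siRNA, 7.99 and 7.76 with p53 siRNA, and 5.61 and 5.41 with both, without TGF-beta. Its treated libraries had 45.5 and 48.3, 34.9 and 34.5, 58.4 and 46.9, and 32.5 and 33.8 CPM. The untreated groups did not overlap one another, and the order from low to high was PRMT1, control, both and p53 siRNA. Adamts16 rose by 3.65 ± 0.12 with control siRNA (12.6-fold, adjusted p = 8.6e-10), by 3.76 ± 0.12 with PRMT1 siRNA, by 2.74 ± 0.11 under p53 siRNA and by 2.59 ± 0.11 with both.

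Adamts4, an aggrecanase that also cuts versican, had 13.8 to 18.4 CPM in the untreated arm: 15.7 and 18.0 with control siRNA, 15.6 and 16.4 with PRMT1 siRNA, 18.4 and 17.6 with p53 siRNA, and 13.8 and 14.8 with both. TGF-beta brought these to 146 and 150.3, 117 and 117, 122 and 75.6, and 102 and 109.6 CPM. Here too the arms were far apart, and the lowest treated library was replicate 2 of p53 siRNA with TGF-beta. The rise was 3.14 ± 0.18 (adjusted p = 7.75e-08), 2.87 ± 0.18, 2.46 ± 0.18 and 2.89 ± 0.18 in the 4 treatments.

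Adamts12, which cuts cartilage oligomeric matrix protein, rose from 1.33 and 2.56 CPM to 13.0 and 12.7 CPM with control siRNA and from 3.12 and 3.50 CPM to 17.5 and 14.7 CPM with PRMT1 siRNA. With both siRNAs it rose from 1.51 and 2.90 CPM to 17.5 and 22.4 CPM. With p53 siRNA it had 3.13 and 3.32 CPM untreated, and its treated libraries disagreed, at 22.0 and 3.71 CPM; the low one is the library that stands apart, and the Adamts12 transcript is 8579 bases long. The changes were 2.73 ± 0.65, 2.28 ± 0.59, 2.00 ± 0.60 and 3.22 ± 0.62 with control, PRMT1, p53 and both siRNAs. With p53 siRNA the change was 2.77 in the 15 libraries and 0.21 without replicate 1 of the treated group, where it was no longer called.

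Adamts3 and Adamts6 showed the same disagreement in that group. Adamts3, a procollagen and growth factor processing enzyme, had 12.3 and 14.3 CPM untreated and 33.4 and 30.8 CPM treated with control siRNA, 11.0 and 10.2 against 12.9 and 14.3 with PRMT1 siRNA, 14.9 and 16.0 against 34.2 and 10.01 with p53 siRNA, and 8.01 and 11.0 against 19.7 and 24.5 with both. It rose by 1.27 ± 0.39 with control siRNA (adjusted p = 0.0226) and by 1.22 ± 0.39 with both, and its 0.36 with PRMT1 siRNA was not called with 16 libraries but was with 15 (adjusted p = 0.0494). Its change with p53 siRNA was 0.53 and not called with 16 libraries, and 1.15 and called with 15. Adamts6, a relative of Adamts10, had 11.4 and 16.5 CPM untreated and 24.6 and 28.5 CPM treated with control siRNA, 10.3 and 11.6 against 17.1 and 16.3 with PRMT1 siRNA, 15.6 and 16.5 against 31.5 and 9.34 with p53 siRNA, and 7.34 and 9.93 against 19.6 and 21.3 with both. All treated libraries of Adamts6 but that 1 were above those untreated with the same siRNA. It was called with both siRNAs (1.25 ± 0.40, adjusted p = 0.0319), not with control siRNA (0.93 ± 0.39, adjusted p = 0.082), and in the 15 libraries it was called in all 4 responses, at 0.93 with control, 0.61 with PRMT1, 0.97 with p53 and 1.26 with both siRNAs. The calls of Adamts3 and of Adamts6 with 16 libraries were lost when any 1 library of their groups was left out.

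Adamts18, related to Adamts16, was almost absent without TGF-beta, at 0 to 0.0484 CPM, and had 0.357 to 1.78 CPM with it. Its ratio of treated to untreated counts was 28.9 with control siRNA (4.77 to 1181), 31.4 with PRMT1 siRNA and 22.6 with both, and at least 22.7 with p53 siRNA, where the untreated group had 0 counts and the floor of 3 counts over the group was used. Adamts10, which acts on fibrillin microfibrils, rose by 0.61 ± 0.09, 0.42 ± 0.09, 0.60 ± 0.09 and 0.44 ± 0.09. Adamts7, a relative of Adamts12, rose with control (0.31 ± 0.09), PRMT1 (0.29 ± 0.09) and p53 siRNA (0.44 ± 0.09), and the procollagen processing enzyme Adamts14 rose with p53 siRNA (0.27 ± 0.09) and with both (0.30 ± 0.09). Adamts2, the main procollagen processing enzyme, was not called in any response, with changes of -0.10 to 0.06.

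Adamts9 and Adamts20, close relatives that both cut versican, went down. Adamts9 had 149 and 178 CPM with control siRNA, 179 and 171 with PRMT1 siRNA, 189.9 and 185 with p53 siRNA, and 126 and 156 with both, untreated. It had 63.1 and 73.8, 58.5 and 66.7, 117 and 55.4, and 99.1 and 115.5 CPM with TGF-beta. All 8 treated libraries lay below all 8 untreated ones, by the smallest distance where both siRNAs were given. Adamts9 changed by -1.25 ± 0.26 with control siRNA (adjusted p = 0.00243), -1.48 ± 0.26 with PRMT1 siRNA and -1.12 ± 0.26 with p53 siRNA, and its -0.39 with both was not called with 16 libraries. With p53 siRNA the value was -0.68 in the 15 libraries and -1.75 without replicate 1 of the treated group, called in both.

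Adamts20 had 3.85 and 4.26 CPM untreated and 1.47 and 1.82 CPM treated with control siRNA, 5.42 and 5.57 against 1.86 and 2.47 with PRMT1 siRNA, 4.77 and 4.68 against 2.67 and 1.39 with p53 siRNA, and 5.42 and 6.24 against 3.18 and 3.52 with both. Its arms did not overlap. The changes were -1.29 ± 0.25, -1.34 ± 0.23, -1.20 ± 0.24 and -0.79 ± 0.22, the last with an adjusted p of 0.0161. Adamts1, another versican-cutting protease, fell with PRMT1 siRNA (-0.46 ± 0.14) and was not called in the other 3 responses with 16 libraries; with 15 libraries it was also called up with p53 siRNA (0.32) and with both (0.39).

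Adamts5, the other main aggrecanase, was the tested gene that was called in opposite directions with 16 libraries. Control siRNA gave 150.2 and 157 CPM untreated and 182 and 177 CPM treated, and PRMT1 siRNA gave 219 and 198 CPM untreated and 119 and 133 CPM treated. With p53 siRNA it had 119 and 131 CPM untreated and 229 and 168 CPM treated, and with both 128 and 129.8 CPM untreated and 185 and 198 CPM treated. PRMT1 siRNA alone therefore had the highest untreated and the lowest treated libraries. It fell by 0.73 ± 0.12 with PRMT1 siRNA, rose by 0.67 ± 0.12 with p53 siRNA (0.87 in the 15 libraries and 0.43 without replicate 1 of the treated group) and by 0.57 ± 0.12 with both, and its 0.23 with control siRNA was not called. Adamts5 has the longest transcript of these genes, 10791 bases, and the untreated PRMT1 siRNA libraries had length slopes of 0.0620 and 0.0552, against -0.0630 and -0.0392 in the treated ones. With each library's trend on transcript length removed (16 libraries), the change with PRMT1 siRNA was -0.44 and still called, that with p53 siRNA was 1.05, and that with both was 0.32 and not called.

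Timp1 rose and Timp2 fell in all 4 responses, and Timp3 changed little. Timp1 had 57.3 and 52.1 CPM with control siRNA, 56.9 and 58.8 with PRMT1 siRNA, 42.7 and 43.0 with p53 siRNA, and 67.7 and 61.1 with both, untreated. With TGF-beta it had 121 and 128, 203 and 207, 135 and 240, and 162 and 148 CPM. Every treated library was above every untreated one, and the 2 treated p53 siRNA libraries were the farthest apart of any pair; the Timp1 transcript is short, 883 bases. The rise was 1.19 ± 0.19 with control siRNA (adjusted p = 0.000453), 1.82 ± 0.20 with PRMT1 siRNA, 2.13 ± 0.20 under p53 siRNA (1.65 in the 15 libraries) and 1.26 ± 0.19 with both.

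Timp2, which both inhibits MMPs and takes part in Mmp2 activation, went from 576 to 671 CPM in the untreated arm to 388 to 530.5 CPM in the treated arm, with no overlap. The changes were -0.29 ± 0.07, -0.37 ± 0.07, -0.74 ± 0.07 and -0.54 ± 0.07 in the 4 treatments. Timp3, the matrix-bound inhibitor that also blocks ADAMTS proteases, lay at 1482 to 2198 CPM without and 1087 to 1948 CPM with TGF-beta. It was called in the p53 siRNA response (-0.40 ± 0.13) and in none of the other 3, and in the 15 libraries that change was -0.18 and not called.

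For the p53 siRNA response, the 15 libraries gave values close to those of 16 for Mmp2 (2.63), Mmp9 (6.44), Mmp14 (1.09), Mmp13 (-4.0), Mmp15 (0.89), Mmp28 (-1.15), Adamts16 (2.89), Adamts10 (0.55), Adamts7 (0.48), Adamts14 (0.30) and Timp2 (-0.79), all called. Adamts4 was at 2.76, Adamts20 at -0.82, Mmp17 at -1.15 and Mmp11 at 0.52, also called. For the genes with few counts, the p53 siRNA ratio without that library was 15.8 for Mmp3 (6.63 to 49.2) and 79.8 for Mmp27 (14.1 to 3169), and at least 9.82 for Mmp8 and 27.9 for Adamts18 by the floor of 3 counts. Responses called with 15 libraries and not with 16 were, beside those of Adamts1, Adamts3, Adamts6 and Mmp16 given above, Adamts5 (0.21), Mmp11 (0.30), Mmp17 (-0.50) and Mmp23 (-0.33) with control siRNA, Timp3 with PRMT1 siRNA (-0.33), and Adamts7 (0.19), Adamts9 (-0.39), Mmp11 (0.29) and Mmp19 (-0.22) with both.

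Between genes, levels are compared per kilobase of transcript. In untreated control siRNA cells the order was Timp3 at 331 ± 24.9 CPM per kb (SD, n = 2), Timp2 at 175 ± 6.96, Mmp2 at 108 ± 0.988, Mmp14 at 90.7 ± 1.52, Timp1 at 62.0 ± 4.20 and then Adamts9 at 20.4 ± 2.55. With TGF-beta it was Mmp2 at 542 ± 26.2, Timp3 at 300.1 ± 11.1, Mmp14 at 189 ± 4.58, Timp2 at 143 ± 0.116, Timp1 at 141 ± 6.19 and Adamts4 at 33.8 ± 0.643. Timp2 and Timp1 did not differ beyond their spread in the treated cells, and the other neighbours named did. Summed over the family, Mmp genes went from 249 to 784 CPM per kb with control siRNA, from 232 to 886 with PRMT1 siRNA, from 259 to 931 with p53 siRNA and from 245 to 859 with both. Summed Timp levels stayed within 569 to 721 CPM per kb, and the 2 arms of each siRNA treatment differed by less than the 2 siRNA treatments farthest apart. The Adamts sum was 79.0 to 97.7 CPM per kb untreated and 103 to 138 treated. In p53 siRNA cells with TGF-beta, replicate 1 alone had sums of 899 (Mmp), 152 (Adamts) and 579 (Timp). Mmp2 and Mmp14 made up most of the Mmp sum, so it says little about the other Mmp genes.

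**Figure D3:**
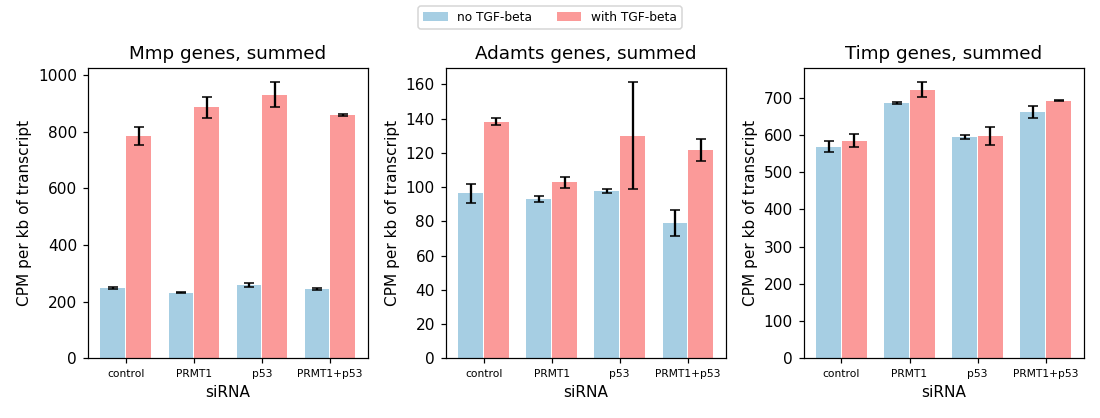
Summed level in CPM per kilobase of transcript (vertical axis) of the Mmp, Adamts and Timp genes under each siRNA (horizontal axis) without and with TGF-beta; bars are means of 2 libraries and error bars are SD. The Mmp bars rise from 232 to 259 without TGF-beta to 784 to 931 with it, the Timp bars stay within 569 to 721, and the widest error bar of the Adamts panel belongs to p53 siRNA with TGF-beta.

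The siRNAs by themselves changed fewer genes and by less. Each siRNA was compared with control siRNA in the same arm; the comparisons of PRMT1 siRNA and of p53 siRNA in an arm share the control libraries. Few of these calls were stable: of the 12 other settings tried for each (other tools and scalings, 15 libraries, removal of length trends, single libraries left out), only the calls of Adamts14, Adamts7, Mmp14 with TGF-beta and Adamts16 under p53 siRNA stood in all 12, and the number kept is given with each of the rest. For nearly all of them the call was lost when single libraries of the 2 groups were left out, with the direction unchanged. In comparisons that use p53 siRNA with TGF-beta, the fit of 15 libraries is the same as leaving out replicate 2 of that group. It counts as 2 settings there and in the later totals of settings.

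PRMT1 siRNA without TGF-beta lowered 5 and raised 3 of the 32 genes, where 10.3% of all tested genes were called (4.48% up and 5.85% down). In the 15 libraries 13 of the genes were called, where the background was 26.4%. Adamts14 changed by -0.58 ± 0.09 (adjusted p = 0.00285), from 52.5 and 54.9 CPM to 36.9 and 35.0 CPM, and Adamts7 by -0.63 ± 0.09 (adjusted p = 0.00132), from 52.6 and 53.7 CPM to 33.0 and 35.5 CPM. Adamts16 (-0.54 ± 0.14, 5 of 12), Adamts2 (-0.38 ± 0.08, 9 of 12) and Mmp14 (-0.34 ± 0.06, 8 of 12) fell as well. Mmp3 rose by 0.89 ± 0.18 (8 of 12), Timp3 by 0.48 ± 0.13 (7 of 12) and Adamts5 by 0.44 ± 0.12 (5 of 12, and 0.28 with length trends removed from the 16 libraries, not called). Those that fell are mostly ADAMTS genes, 4 of the 14 tested.

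With TGF-beta present, PRMT1 siRNA lowered 6 and raised 4 of the 32 genes (background 15.7%, 9.13% up and 6.53% down), and in the 15 libraries 18 were called where the background was 41.4%. Adamts14 (-0.61 ± 0.09) and Adamts7 (-0.65 ± 0.09) were again lower, with 61.4 and 61.3 against 38.9 and 41.4 CPM for Adamts14 and 66.3 and 65.6 against 39.9 and 44.2 CPM for Adamts7. The groups of both genes did not overlap in either arm. Adamts16 (-0.44 ± 0.10, 8 of 12), Adamts10 (-0.40 ± 0.09, 8 of 12) and Timp2 (-0.23 ± 0.07, 6 of 12) fell. Adamts5 fell by 0.51 ± 0.12 (6 of 12), and was at -0.18, not called, with length trends removed. Of the 14 tested ADAMTS genes 0 were called up in this comparison, where 9.13% of all tested genes were. With only 14 genes this is near the background and is not a result about the family. Adamts12 (17.5 and 14.7 against 13.0 and 12.7 CPM) and Adamts20 (1.86 and 2.47 against 1.47 and 1.82 CPM) were higher without being called. Mmp14 rose by 0.50 ± 0.06 (adjusted p = 0.000578), Mmp13 by 1.09 ± 0.24 (9 of 12) from 1.04 and 1.65 CPM to 2.84 and 3.03 CPM, and Mmp19 by 0.29 ± 0.08 (5 of 12). Timp1 rose by 0.72 ± 0.19 (8 of 12), which was 0.39 with length trends removed from the 16 libraries, still called.

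**Figure D4:**
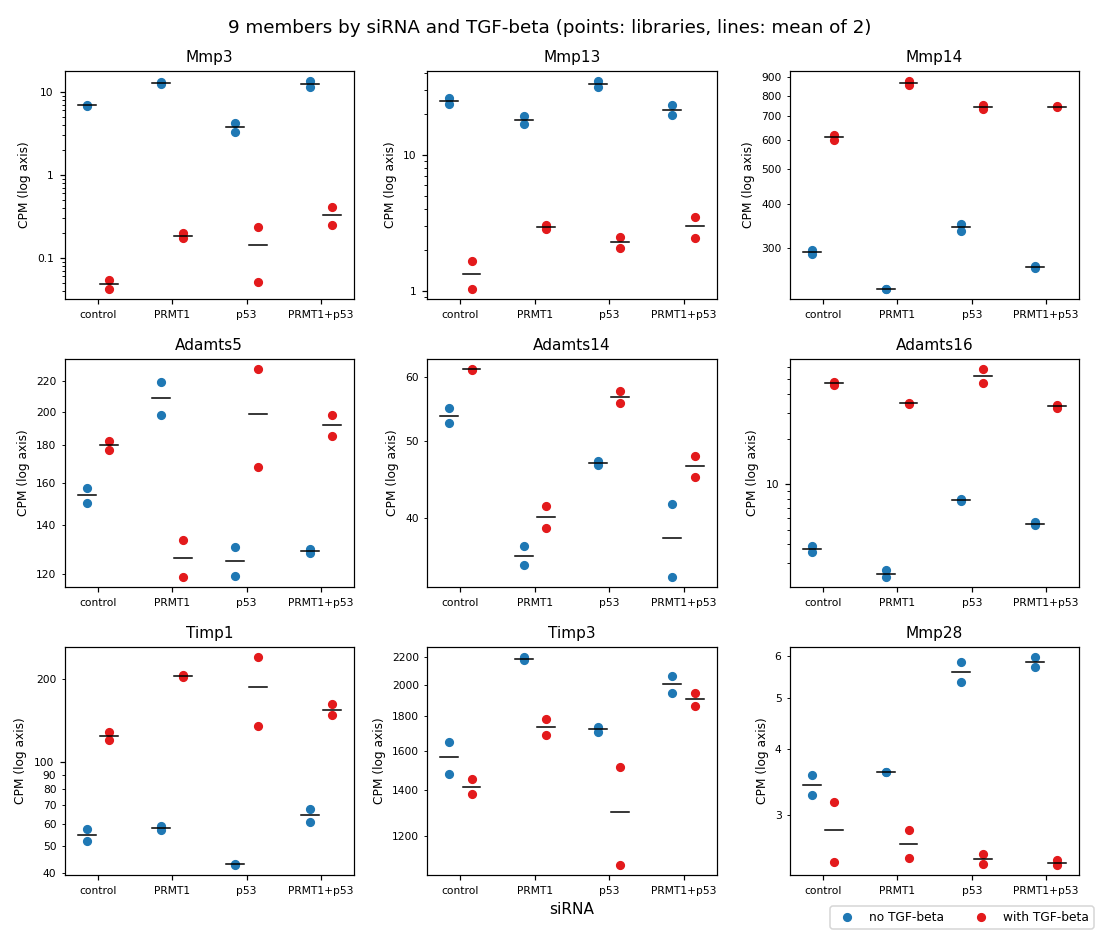
Level in CPM (vertical log axis) of 9 genes in each of the 16 libraries, by siRNA (horizontal axis) and without or with TGF-beta; each point is a library. Adamts14 is lower in both arms with PRMT1 siRNA, untreated Adamts16 is higher with p53 siRNA than with control siRNA, and Mmp14 with PRMT1 siRNA has the lowest untreated and the highest treated points.

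p53 siRNA without TGF-beta raised 4 genes and lowered 1 (background 2.47%, 1.17% up and 1.29% down), and 13 were called in the 15 libraries (background 11.7%). Adamts16 rose by 1.08 ± 0.12 (adjusted p = 0.00124), with 3.54 and 3.92 CPM in control and 7.99 and 7.76 CPM in p53 siRNA cells. Mmp17 rose by 0.84 ± 0.17 (7 of 12), from 2.61 and 2.52 CPM to 4.58 and 4.60 CPM, Mmp28 rose by 0.71 ± 0.14 (8 of 12), and Adamts2 rose by 0.37 ± 0.07 (6 of 12). Mmp3 fell by 0.88 ± 0.19 (7 of 12), so that PRMT1 siRNA and p53 siRNA, set against the same control libraries, had Mmp3 on opposite sides of it. With TGF-beta, p53 siRNA raised 5 genes and lowered 1 (background 5.21%, 2.82% up and 2.39% down). Mmp19 rose by 0.48 ± 0.08 (9 of 12), Adamts2 by 0.36 ± 0.07 (9 of 12) and Mmp14 by 0.28 ± 0.06 (8 of 12), and Timp2 fell by 0.40 ± 0.07 (9 of 12). Mmp11 (0.66 ± 0.14, 7 of 12) and Mmp23 (0.78 ± 0.18, 5 of 12) were higher as well, but without the library that stands apart they were at 0.45 and 0.41 and not called. In the 15 libraries 8 genes were called, where the background was 4.1%: Adamts2 (0.40), Mmp14 (0.25), Mmp19 (0.55), Timp2 (-0.45), Adamts16 (0.31), Adamts4 (-0.29), Adamts5 (0.34) and Adamts9 (0.77). All 6 calls were lost without either library of control siRNA with TGF-beta, with 0 genes called in each case.

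Setting both siRNAs against PRMT1 siRNA alone gives the p53 siRNA effect in cells that also had PRMT1 siRNA. Whether p53 siRNA alters the effect of PRMT1 siRNA was not tested. Without TGF-beta, Adamts16 was higher by 1.10 ± 0.13 (adjusted p = 0.00553, 9 of 12), with 2.69 and 2.43 CPM under PRMT1 siRNA and 5.61 and 5.41 CPM under both. Mmp28 was higher by 0.69 ± 0.14 (7 of 12), and Adamts5 was lower, at -0.69 ± 0.12 (6 of 12, and -0.35, not called, with length trends removed from the 16 libraries). The background was 0.865% (0.568% up and 0.297% down), and in the 15 libraries 10 genes were called where the background was 21.6%. With TGF-beta, 0 of the 32 genes were called by edgeR (background 0.452%, 0.219% up and 0.232% down), while 9 had an unadjusted p under 0.05, DESeq2 called 3 (background 1.45%), and the fit of 15 libraries called 9 (background 12.2%). Adamts14 and Adamts7 had levels between those of PRMT1 and control siRNA in both arms when both siRNAs were given, apart from 1 untreated library of Adamts14: 33.8 and 41.7 CPM untreated and 45.1 and 47.9 CPM treated for Adamts14, and 40.9 and 45.8 CPM untreated and 48.5 and 50.4 CPM treated for Adamts7.

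Whether the response to TGF-beta differed with an siRNA was tested by the interaction. For PRMT1 siRNA 3 of the 32 genes were called (background 2.08%, 1.3% up and 0.781% down): Mmp14 rose more, by 0.84 ± 0.09 (adjusted p = 0.000726), Mmp13 fell less, by 1.55 ± 0.29 (adjusted p = 0.0209), and Adamts5 differed by -0.95 ± 0.18 (adjusted p = 0.0212). The Mmp14 call stood in all 16 other settings, that of Mmp13 in 9 and that of Adamts5 in 7. With 15 libraries 8 genes were called, where the background was 30.7%. For p53 siRNA 1 gene was called (background 1.02%, 0.452% up and 0.568% down), Adamts16, whose rise was smaller (interaction -0.91 ± 0.16, adjusted p = 0.0234, 9 of 16 other settings); its untreated level was higher than with control siRNA, and its treated libraries overlapped those of control siRNA. With 15 libraries 5 were called (background 2.24%): Adamts16 (-0.75), Timp2 (-0.48), Adamts5 (0.65), Mmp19 (0.63) and Timp1. Timp1 rose by 2.13 with p53 siRNA and 1.19 with control siRNA, but its interaction was not called with 16 libraries (0.94 ± 0.27, adjusted p = 0.139); it was 0.48 and called with 15 (adjusted p = 0.0376).

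Other genes of the pericellular protease system were read from fixed lists in the response to TGF-beta with control siRNA, where 38.4% of all tested genes were called. Of 7 tested genes of plasminogen activation, the cascade that makes plasmin and so activates MMP precursors, 3 rose and 0 fell, among them Plaur, the urokinase receptor (2.06 ± 0.14), and Plau, urokinase (1.36 ± 0.11). Of 8 genes that activate, anchor or restrain metalloproteinases, 2 rose and 4 fell. The convertase Furin, which cuts the precursors of membrane-anchored MMPs and ADAMTS proteases, rose by 1.36 ± 0.08 and the Mmp9 anchor Cd44 rose by 0.97 ± 0.09. Those that fell were the caveolin Cav1 (-1.45 ± 0.08), the convertase Pcsk6 (-1.01 ± 0.10), the MMP inducer Bsg (-1.06 ± 0.16) and Reck, a membrane-anchored MMP inhibitor (-0.53 ± 0.17, adjusted p = 0.0281).

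Of 10 ADAM proteases, the membrane-anchored relatives of the ADAMTS family, 2 rose and 3 fell, among them Adam19 (2.52 ± 0.17), Adam12 (1.54 ± 0.23), Adam33 (-3.82 ± 0.69) and Adam10 (-0.65 ± 0.12). Of 6 tested ADAMTS-like genes, whose proteins have the ADAMTS repeats but no protease domain, 2 rose and 3 fell. Thsd4 (-5.31 ± 0.25), Adamtsl1 (-4.60 ± 0.28) and Adamtsl4 (-2.88 ± 0.19) fell, and Adamtsl3 rose by 3.60 ± 0.31. Of 10 tested ADAMTS substrates 9 rose and 1 fell, with Col5a1 at 2.55 ± 0.10, Thbs1 at 2.13 ± 0.19 and Lox at 1.46 ± 0.13. Of 11 AP-1 and ETS factors, the families whose sites are typical of MMP promoters, 7 rose and 1 fell: Etv4 changed by 4.32 ± 0.13, Fosl1 by 1.94 ± 0.13, Junb by 1.62 ± 0.12 and Jun by 1.31 ± 0.10.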

How the data were processed

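MEC1 RNA was enriched for poly(A) and sequenced in 16 libraries, per the labels' protocols. The deposited table gives expected counts per gene, made by the authors with TopHat2 and Partek on mm10 per the submitters' processing notes; versions, annotation and strand are not given in the sources used here. Values were rounded before testing; 60.0% of those above 0 were whole to within 0.01. Groups came from sample titles. The table's end coordinate is 1 past the last base, so 1 was subtracted.

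With edgeR 4.0.16 in R 4.3.3, all 16 libraries entered 1 fit with a mean for each group (TMM, filterByExpr, quasi-likelihood F test, 12 contrasts). The common biological coefficient of variation was 0.114, and 0.0604 with 15 libraries. Other settings were DESeq2 1.42.0, RLE factors, no filter, only a contrast's groups, a replicate block, 15 libraries, offsets for transcript length (lengths from GENCODE vM21, for 96.5% of tested genes), and each library left out, which leaves its group with 1 library assumed to vary like the others. Data were simulated for the control siRNA response over 15494 genes. The numbers found were 43 of 67 for a true log2 change of 0.5, 67 of 67 for 1 and 66 of 66 for 2. There were 9 calls among 15294 unchanged genes. The simulation used the smaller spread of the 15 libraries (0.0604) for every gene and had no library that stands apart. Its changed genes had a mean above 1 CPM. It therefore does not show recovery at the spread of the 16 libraries (0.114) or at lower levels. Ratios of low counts have 95% intervals for counting error only.

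The genes, lists and settings were chosen with earlier results of these data known. All 16 libraries are given for genes of at least 5 CPM in a group that were called with a log2 change of at least 1; of each list, up to 4 genes with the lowest adjusted p, plus Reck. A result that this rule allows is not reported here. Genes of the lists with a group of 3 counts or fewer were left out of the named ones. Promoters are from RefSeq, GRCm38.p6; protein sequences were not used here.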

Additional observations from a re-analysis of the deposited data

Results flagged for a closer look

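The response to TGF-beta differed between siRNA treatments, by a test of the difference itself, in 4 of the 32 tested genes. With PRMT1 siRNA the log2 response of Mmp14 was higher than with control siRNA by 0.84, that of Mmp13 was higher by 1.55, and that of Adamts5 was lower, at -0.95. With p53 siRNA the response of Adamts16 was lower, at -0.91. Leaving out single libraries gave 0.82 to 0.87 for Mmp14, 1.28 to 1.96 for Mmp13, -1.03 to -0.86 for Adamts5 and -1.07 to -0.75 for Adamts16. With length trends removed from the 16 libraries, Adamts5 was at -0.46 and not called (adjusted p = 0.152), and the others were at 0.83, 1.45 and -0.74 and called.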

How the results depend on the processing

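The 126 calls of single genes were recomputed in 1528 settings: 1301 kept the call, 227 lost it, and 0 reversed; 67 calls stood throughout. Counts of the 32 genes called in the TGF-beta responses with control, PRMT1 and both siRNAs stayed within 1.5 times; with p53 siRNA the count was 24, and 13 in a fit of only its groups. Single libraries left out gave 17 to 18, 17 to 19, 20 to 28 and 17 to 18 in these responses. The PRMT1 siRNA effect without TGF-beta (8) was 13 with 15 libraries, 15 with length offsets as well, and 2 to 4 with single libraries left out; with TGF-beta (10) it was 18 with only its groups, 18 with 15 libraries, 18 with length offsets and 15 libraries, and 3 to 4. The p53 siRNA effect without TGF-beta (5) was 13, 14 with length offsets as well, and 1 to 1. With TGF-beta (6) it was 10 with no filter, 0 with only its groups, 11 and 10 with length offsets on 16 and 15 libraries, and 0 to 16; the 16 came from leaving out replicate 1 of the treated p53 siRNA group. Adding p53 siRNA to PRMT1 siRNA without TGF-beta (3) gave 6 with DESeq2, 6 with no filter, 7 with only its groups, 1 with a replicate block, 10 with 15 libraries, 5 and 9 with length offsets, and 0 to 1. With TGF-beta (0) it gave 3 with DESeq2, 3 with no filter, 11 with only its groups, 9 with 15 libraries, and 3 and 8 with length offsets. The PRMT1 siRNA interaction (3) gave 6 with no filter, 8 with only its groups, 8 with 15 libraries, 8 with length offsets and 15 libraries, and 1 to 2. The p53 siRNA interaction (1) gave 5 with DESeq2, 2 with RLE factors, 8 with no filter, 0 with only its groups, 5 with 15 libraries, 6 and 8 with length offsets, and 0 to 17. Counts were often lower with another single library left out and were higher in the fit of 15 libraries, which also lacks 1 library. The causes were not tested. Same-numbered libraries deviated together at correlations of -0.40 to 0.25, and 0 of 16 correlated best with its own number, so the numbers were not taken as pairs; the replicate block gave 20, 23, 24, 22, 6, 8, 4, 5, 1, 0, 3 and 1 calls in the order of the 12 comparisons. The share of all tested genes called also moved between settings. For p53 siRNA added to PRMT1 siRNA without TGF-beta it was 0.865% as reported and 3.58% with DESeq2. Counts given here without that share are therefore not results about these genes alone. Genes at the floor are limited by depth.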
